A study of Mus musculus with 15 samples.

Results

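Skin that had healed over a 10 mm wound filled with mesenchymal stem cell (MSC) beads was compared with normal skin across all measured genes. The 2 groups were taken by their labels and hold 6 of the 15 RNA libraries of the study, 3 of HDB 10 mm skin and 3 of normal skin. All animals were male balb/c mice labelled wild type, and the methods give the wounded mice as 4 to 6 weeks old when wounded. The methods state neither the age at sampling nor the age of the mice with normal skin. In the HDB 10 mm group a full-thickness piece of dorsal skin was excised and the gap was filled with printed Matrigel beads loaded with MSCs at high density, with acellular Matrigel beads in the spaces between them. The MSCs came from human umbilical cord, and the reads were mapped to the mouse genome, so transcripts of surviving human cells were not measured separately. The normal group is labelled normal and was taken as skin with neither wound nor beads. The methods do not give its body site or the mice it came from. The normal group therefore differs from the HDB group in the wound, the Matrigel and the cells at once, which this comparison cannot tell apart. The methods place the sequenced skin 4 weeks after implantation and the end of the wound experiment at day 21. The labels do not say whether the 3 samples of a group came from 3 mice, so all p-values measure the spread between samples. In the main fit this spread was estimated from all 15 libraries, and so also from groups outside the 6 libraries compared.

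Skin repair passes through inflammation, regrowth of the epidermis and formation of new connective tissue, and the new tissue is then remodelled over weeks. Keratinocytes that close a wound divide and switch on a set of stress keratins and cornified envelope proteins, fibroblasts lay down a provisional matrix, and blood vessels first sprout and later regress. In the mouse, dorsal skin also holds hair follicles with their sebaceous glands, a layer of dermal fat and a thin sheet of skeletal muscle, the panniculus carnosus, beneath it. Hair follicles and skin cells also run a circadian clock, in which Arntl and its partners Clock and Npas2 switch on the Per and Cry repressors and the output factors Dbp, Tef and Hlf.

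The 6 libraries held between 15840551 and 18074237 estimated reads on genes. Levels are given as CPM, the share of a library's reads that fell on a gene after TMM scaling, and differences as log2 fold changes of HDB 10 mm over normal skin. A gene was called when its adjusted p in edgeR's quasi-likelihood test was under 0.05. Of 15369 genes tested, 1895 (12.3%) were called, 937 higher (6.1%) and 958 lower (6.23%) in HDB 10 mm skin, and 4862 had an unadjusted p under 0.05. Changes were mostly moderate, with a median log2 fold change of 0.93 among genes called higher and −0.95 among genes called lower. A difference of at least 2 on the log2 scale was reached by 153 genes called higher and 117 called lower. The samples of the 2 groups did not overlap for 1882 of the called genes, against 49.1% of all genes tested. DESeq2, which the study's methods name, called 3804 genes (24.8%) and included 1894 of the 1895.

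**Figure D1:**
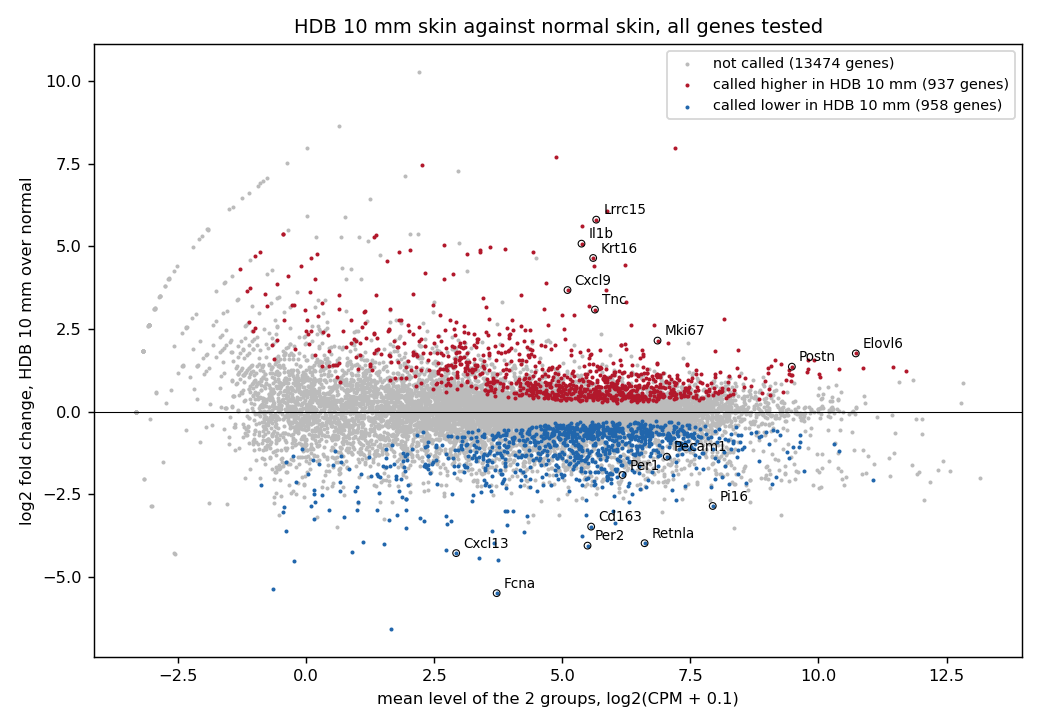
Each point is 1 of the 15369 genes tested, with its mean level in the 2 groups as log2(CPM + 0.1) on the horizontal axis and its log2 fold change, HDB 10 mm over normal, on the vertical axis. The 937 genes called higher (red) and the 958 called lower (blue) lie above and below 0 over nearly the whole range of levels, and the grey arc at the upper left holds uncalled genes with few or no reads in normal skin.

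The 3 HDB libraries were less alike than the 3 normal ones. Correlations of log2 CPM across genes lay between 0.983 and 0.989 for pairs of normal libraries, whereas HDB replicate 1 correlated at 0.923 with HDB replicate 2, at 0.963 with HDB replicate 3 and at 0.959 to 0.966 with the normal libraries. HDB replicate 1 also moved least from the normal mean, with a median log2 difference of 0.70 over the genes called higher, compared with 1.11 in replicate 2 and 0.87 in replicate 3. All 6 libraries carried the defining genes of skin, with Krt5 of basal keratinocytes between 2225 and 6136 CPM and the dermal proteoglycan gene Dcn between 509.5 and 1945 CPM. The libraries parted most clearly in skeletal muscle. The summed level of 61 muscle fibre genes was 65740, 1687 and 15670 CPM in HDB replicates 1, 2 and 3 and 109200, 86790 and 98180 CPM in the normal replicates. Single libraries weighed on the number of calls. It was 2725, 179 and 277 without HDB replicates 1, 2 and 3, and 455, 601 and 78 without normal replicates 1, 2 and 3. Where counts without each library are given below, they stand in the order HDB replicates 1, 2 and 3, then normal replicates 1, 2 and 3. All 1895 called genes kept the sign of their fold change in each of these 6 fits, 72 of them (38 higher and 34 lower) were called in every one, and 1045 were called in exactly 1.

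Many circadian clock genes differed between the groups. Of 19 clock genes tested, 10 were called lower and 2 higher, with a median log2 fold change of −1.19 against 0.02 over all genes, and for 11 of them every HDB sample lay below every normal sample (23.4% of all genes tested did so). The 2 that rose were Arntl and Npas2, activators of the loop, while the repressors Per1, Per2, Per3 and Cry2 and the output factors Dbp, Tef and Hlf fell. Upstream sequences of 3 fallen genes, from RefSeq (GRCm38.p6), are shown because they carry the letters that clock factors are known to bind, each written 5′ to 3′ on the gene's strand and ending 1 base before the annotated start. Capitals mark the E-box CACGTG, bound by Arntl with Clock or Npas2, and the D-box TTATGNAA, bound by Dbp, Tef and Hlf.
Per1 (chr11:69098699-69098948, plus strand): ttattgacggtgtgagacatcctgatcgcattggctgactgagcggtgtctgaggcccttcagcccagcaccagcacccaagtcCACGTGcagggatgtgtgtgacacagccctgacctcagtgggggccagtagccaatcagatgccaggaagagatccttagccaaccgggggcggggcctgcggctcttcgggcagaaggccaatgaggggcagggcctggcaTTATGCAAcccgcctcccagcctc
Tef (chr15:81802423-81802672, plus strand): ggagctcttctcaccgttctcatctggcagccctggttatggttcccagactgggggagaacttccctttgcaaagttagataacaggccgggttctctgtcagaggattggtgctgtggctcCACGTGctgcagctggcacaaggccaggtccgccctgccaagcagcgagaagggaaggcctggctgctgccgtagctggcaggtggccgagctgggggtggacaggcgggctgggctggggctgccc
Per3 (chr4:151044666-151044915, minus strand): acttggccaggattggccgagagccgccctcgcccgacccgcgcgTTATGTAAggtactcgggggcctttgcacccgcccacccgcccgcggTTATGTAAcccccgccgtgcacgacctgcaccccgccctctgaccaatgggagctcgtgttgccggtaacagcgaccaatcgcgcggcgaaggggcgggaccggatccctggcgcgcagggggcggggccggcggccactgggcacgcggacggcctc
These motifs and the ROR element (TAGGTCA or TGGGTCA), bound by Rora and Nr1d1, were searched on both strands of windows running from 250 bases before to 50 bases after each start. Windows were given for 16 of the clock genes, and 5 of these genes held an E-box, 2 a D-box and 2 a ROR element. Of the 5 with an E-box, Per1 and Tef fell while Cry1, Ciart and Bhlhe41 were not called, and the fallen genes Cry2, Dbp, Hlf and Nr1d2 held none of these motifs. Counted by window, 28.6% of the 21 clock gene windows held an E-box, 9.52% a D-box and 9.52% a ROR element. Among all 32851 promoter windows of this length, 7.15% held an E-box, 3.38% a D-box and 6.45% a ROR element. Windows of genes called higher held an E-box in 9.36% of cases, those of genes called lower in 8.91% and those of uncalled genes in 9.22%. For the D-box these shares were 2.29%, 3.27% and 2.26%, and for the ROR element 6.96%, 4.65% and 5.28%. A match describes the letters in the window only.

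Per1 (Entrez 18626, chr11:69095108-69109965, GRCm38.p6) measured 32.5, 26.8 and 31.5 CPM in the HDB replicates and 148.5, 98.4 and 95.2 CPM in the normal replicates. Its 3 HDB values were nearly equal, and all lay far below the lowest normal value. The log2 fold change was −1.91 ± 0.19 (SE, edgeR adjusted p = 0.000968), and it was called in all 6 leave-one-out fits. Cry2, the other repressor called in all 6, stood at 30.5, 19.9 and 25.7 CPM against 89.7, 80.4 and 78.6 CPM (log2 fold change −1.71 ± 0.21, adjusted p = 0.00217). Arntl moved the opposite way, from 10.8, 10.3 and 12.9 CPM in normal skin to 50.7, 47.4 and 40.3 CPM in HDB skin (2.02 ± 0.31, adjusted p = 0.00727), and it too was called in all 6 fits. The groups were well apart for each of these genes.

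Per2 showed the widest gap of the group, at 6.04, 2.31 and 6.997 CPM in HDB skin and 94.3, 91.4 and 68.2 CPM in normal skin (log2 fold change −4.05 ± 0.93, adjusted p = 0.0219). Dbp stood at 12.2, 10.3 and 12.1 CPM against 124.5, 139.9 and 90.1 CPM, and Tef at 149.2, 73.2 and 106.0 CPM against 516.6, 501.5 and 476.6 CPM. For Dbp and Tef the log2 fold changes were −3.36 ± 0.77 (adjusted p = 0.0222) and −2.19 ± 0.41 (adjusted p = 0.0132). Per3 (−2.54), Hlf (−1.46), Nr1d2 (−1.31) and Bhlhe40 (−0.74) were also called lower. Npas2 was called higher at 1.98. Not every clock gene differed: Rora measured 215.0, 229.9 and 177.7 CPM against 228.5, 181.3 and 196.9 CPM, and Nr1d1, Cry1 and Clock did not pass the test either (adjusted p of 0.581, 0.0511 and 0.112). In the 6 leave-one-out fits, 8, 3, 2, 5, 5 and 2 were called lower. The time of day at which skin was taken is not given in the sources used here.

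**Figure D2:**
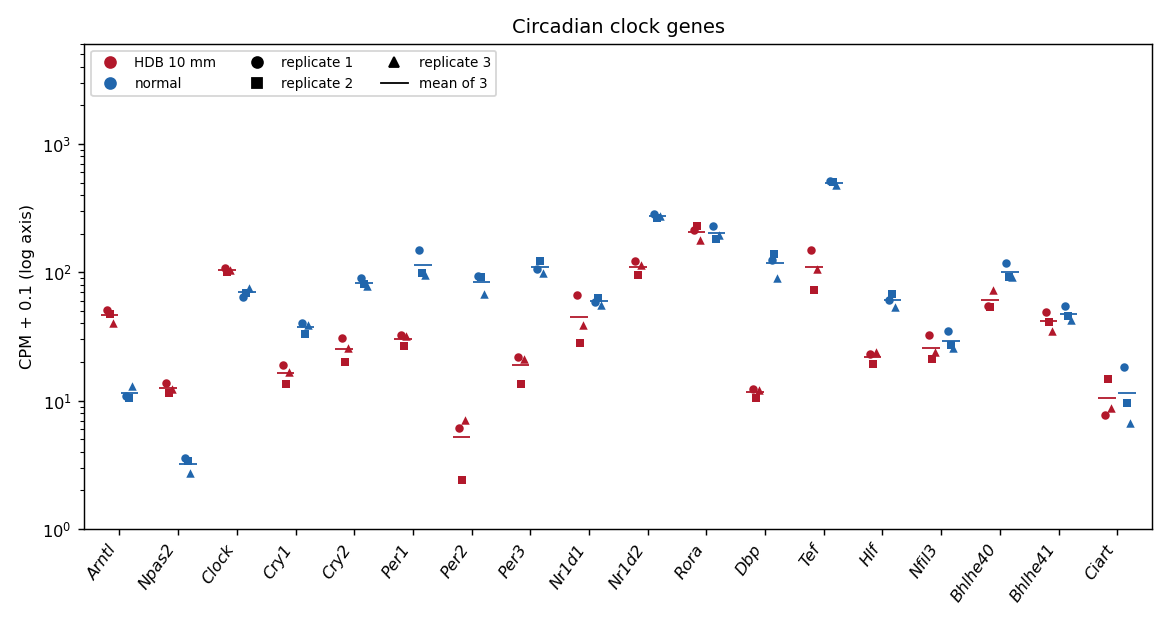
CPM + 0.1 on a log axis for 18 of the clock genes tested in the 3 HDB 10 mm (red) and 3 normal (blue) samples, where the marker shape gives the replicate and the short line the mean of 3. Arntl and Npas2 sit higher in HDB skin, Per1, Per2, Per3, Cry2, Dbp, Tef and Hlf sit lower, and Rora overlaps.

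Some genes of wound-activated keratinocytes were higher in HDB 10 mm skin. Of 26 genes of the wound and hyperproliferative keratinocyte list tested, 8 were called higher and 1 lower (median log2 fold change 2.08). The list was not raised in every HDB library, since its mean log2 level relative to the normal mean was 0.48, 2.87 and 2.13 in the HDB replicates and 0.40, −0.13 and −0.27 in the normal replicates. Krt16, the stress keratin of healing epidermis, measured 39.7, 141.6 and 98.2 CPM in HDB skin and 5.34, 3.28 and 2.55 CPM in normal skin (4.65 ± 1.08, adjusted p = 0.0225). The gap junction proteins Gjb6 (connexin 30) and Gjb2 (connexin 26) rose by 4.75 ± 0.83 and 3.88 ± 1.01 on the log2 scale (adjusted p of 0.0105 and 0.0322). In bulk skin, fewer cells of a type and less RNA per cell cannot be told apart, and the same holds for more.

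Among called genes with at least 10 CPM in the higher group, the 3 largest rises were in cysteine protease inhibitors of the stefin family. Stfa3 measured 8.997, 218.5 and 118.6 CPM against 2.53, 2.08 and 0.537 CPM in normal skin (6.07 ± 1.03, adjusted p = 0.00968). Cstdc5 measured 7.99, 615.4 and 249.6 CPM against 2.74, 0.737 and 0 CPM, and Cstdc6 measured 2.01, 122.9 and 49.9 CPM against 0.562, 0.201 and 0.0671 CPM. HDB replicate 1 lay far below the other HDB libraries for all of these while still above normal skin. The stefin genes form a cluster of close copies on chromosome 16 between which the counting may have divided reads, so the value of each single member is uncertain, and the same applies to Sprr2a1 and Sprr2a3 (4.82 and 4.02 higher). The beta-defensin Defb6, at 72.5, 136.3 and 98.4 CPM against 43.6, 36.6 and 35.6 CPM, was higher by 1.41 ± 0.28 (adjusted p = 0.0142).

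The remaining members of the keratinocyte list varied more. Krt6a, a partner of Krt16, measured 263.3, 360.9 and 160.8 CPM against 198.3, 123.1 and 89.0 CPM, an overlap between the groups (adjusted p = 0.353). Krt17 measured 414.8, 683.6 and 863.9 CPM against 307.9, 354.9 and 292.9 CPM and did not pass the test (adjusted p = 0.152). The crosslinking enzyme Tgm2, which is also made by endothelium and other cells, fell by 2.02 ± 0.53 (adjusted p = 0.0329). Sprr1b, a cornified envelope precursor, was called higher as well, but it rested on 0 or 1 read per normal library, and HDB replicate 1 stood at 0.178 CPM beside 11.7 and 15.9 CPM in the others. With each library left out in turn, 13, 2, 3, 3, 3 and 0 members were called higher.

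Among 45 genes of epidermal differentiation and barrier, 4 were called higher (8.89%, against 6.1% of all genes) and 0 lower, with a median log2 fold change of 0.08. The list was mixed in direction, since 13 members had every HDB sample below every normal sample and 2 had every HDB sample above, against 23.4% and 25.7% of all genes. At an unadjusted p under 0.05, 7 were higher and 8 lower, and DESeq2 called 6 higher and 7 lower. Among the lower ones, the suprabasal keratin Krt77 measured 202.3, 392.6 and 509.0 CPM against 929.6, 991.0 and 1372 CPM (adjusted p = 0.0556), and Cdsn, the adhesion protein of the cornified layer, measured 30.3, 31.8 and 39.7 CPM against 66.0, 73.5 and 93.7 CPM (adjusted p = 0.0563). Rptn, a cornified envelope protein, measured 2.66, 92.2 and 149.4 CPM against 1.19, 2.68 and 1.14 CPM (5.599 ± 1.17, adjusted p = 0.0168), and Casp14, the protease of cornification, measured 14.6, 120.0 and 76.4 CPM against 19.2, 15.9 and 23.3 CPM (1.85 ± 0.55, adjusted p = 0.0460). Both were high in HDB replicates 2 and 3 only, and HDB replicate 1 lay within or below the normal range. The suprabasal keratin Krt10 measured 576.9, 1519 and 1225 CPM against 1378, 1562 and 1921 CPM and was not called (adjusted p = 0.421). Of 20 basal keratinocyte and basement membrane genes, 4 were called higher, including Krt14 (1.34 ± 0.40), Lama3 (0.73 ± 0.20) and Cdh1 (0.70 ± 0.21). The other barrier genes called were Elovl4, an elongase of very long fatty acids, at 4225, 6373 and 3553 CPM against 2507, 1738 and 1747 CPM (1.24 ± 0.31), and the calmodulin-like Calml3 (1.36 ± 0.37). Without each library in turn, 8, 0, 0, 0, 1 and 0 barrier genes and 4, 0, 0, 0, 0 and 0 basal genes were called higher.

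Many proliferation genes were higher in HDB skin. Of 50 cell cycle genes tested, 23 were called higher and 0 lower, with a median log2 fold change of 1.5, and in 44 of them all HDB samples lay above all normal samples (25.7% of all genes tested did so). Mki67, the standard marker of dividing cells, measured 157.6, 195.7 and 213.9 CPM in HDB skin and 44.8, 45.2 and 38.0 CPM in normal skin (2.15 ± 0.55, adjusted p = 0.0304). Top2a, which untangles DNA at division, measured 90.6, 126.7 and 124.9 CPM against 31.8, 29.1 and 23.7 CPM (2.02 ± 0.54, adjusted p = 0.0335). The kinetochore proteins Cenpe and Cenpf rose by 2.77 ± 0.59 and 2.62 ± 0.52. Here HDB replicate 1 was close to the other HDB libraries, unlike in the keratinocyte genes. The count depended on which library was left out, at 25, 0, 1, 3, 4 and 0 without each library in turn.

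Of 26 sebaceous gland genes tested, 11 were called higher and 0 lower (median log2 fold change 0.95). The fold change was negative in 7 members, 4 of which (Fads1, Fads2, Gldc and Cidec) had every HDB sample below every normal sample, and DESeq2 called 15 higher and 2 lower. The fatty acid elongase Elovl3 measured 309.3, 864.5 and 440.8 CPM against 188.5, 141.1 and 115.6 CPM (1.86 ± 0.30, adjusted p = 0.00889), and Elovl6 measured 2426, 3521 and 1918 CPM against 985.0, 594.7 and 740.1 CPM (1.76 ± 0.28, adjusted p = 0.00881). No HDB sample fell within the normal range of either gene. Krt79, the keratin of the sebaceous duct, was higher by 1.55 ± 0.28, the fatty acid hydroxylase Fa2h by 1.29 ± 0.28 and the cholesterol-esterifying enzyme Soat1 by 1.27 ± 0.24. By contrast the gland desaturase Scd3 measured 1494, 1850 and 1021 CPM against 1115, 735.8 and 739.9 CPM and the wax synthase Awat2 68.8, 96.6 and 38.3 CPM against 64.3, 34.7 and 45.5 CPM, and both overlapped with normal skin. The fatty acyl reductase Far2, at 1209, 1939 and 1084 CPM against 885.0, 620.6 and 538.2 CPM, rose by 1.05 ± 0.30. The number called was 12, 4, 7, 7, 5 and 0 without each library in turn.

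In the follicle stem cell and outer root sheath list, 6 of 20 genes were called higher and 2 lower. Postn, which is also in a matrix list and is described there, was among those called higher. The stem cell receptor Lgr5 measured 35.5, 33.5 and 31.0 CPM against 7.17, 10.2 and 9.79 CPM (1.88 ± 0.49, adjusted p = 0.0322), and the transcription factor Sox9 measured 62.3, 76.2 and 61.6 CPM against 25.2, 26.3 and 22.9 CPM (1.43 ± 0.43, adjusted p = 0.04998). Cd34, which marks bulge cells and also dermal fibroblasts and endothelium, fell by 1.40 ± 0.36 (adjusted p = 0.0310). Of 22 dermal papilla genes 2 were called higher, Sostdc1 and Corin, and 2 lower, Prom1 and Nog (9.09% each way, against 6.1% and 6.23% of all genes). Sostdc1, a secreted inhibitor of BMP and Wnt signals, measured 96.5, 138.7 and 127.6 CPM against 34.9, 26.9 and 25.3 CPM (2.06 ± 0.21, adjusted p = 0.000968) and was called in all 6 leave-one-out fits. Nog, the BMP antagonist of the papilla, fell by 1.28 ± 0.29 (adjusted p = 0.0213). In the 6 leave-one-out fits, 6, 0, 1, 2, 1 and 0 genes of the stem cell and outer root sheath list were called higher.

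The differentiated hair compartments gave no calls in the edgeR fit of all 5 groups. None of the 46 hair shaft keratin genes, 12 inner root sheath genes or 22 hair matrix genes tested passed, although the medians of their log2 fold changes were 2.30, 4.21 and 0.67. At an unadjusted p under 0.05 there were 1, 1 and 4 genes in the 3 lists, and DESeq2 called 2, 6 and 2. With only the 2 groups fitted, edgeR called 3, 5 and 5 higher and 1, 0 and 1 lower, and the medians of the shaft and inner root sheath lists were 1.41 and 1.29. Leaving out HDB replicate 1 gave 1 hair matrix gene called higher. Many of the shaft genes had under 1 CPM in every library, where a fold change rests on few reads. Krt71, an inner root sheath keratin, measured 4.79, 1.40 and 5.22 CPM against 0.141, 0.0670 and 0.0671 CPM, and the shaft keratin Krt31 reached 1.36 CPM at most. Summed over the shaft list the level was 89.6, 114.2 and 97.0 CPM in HDB skin and 48.7, 33.4 and 34.5 CPM in normal skin, most of it from Hephl1, a copper-dependent oxidase (62.3, 99.6 and 77.5 CPM against 37.9, 26.1 and 24.9 CPM, adjusted p = 0.1004). The best measured members of the other lists were the transcription factor Gata3, at 109.1, 140.4 and 121.3 CPM against 121.7, 93.5 and 98.9 CPM, and the Wnt target Axin2, at 54.7, 58.8 and 60.8 CPM against 48.6, 45.5 and 45.2 CPM.

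The 12 genes with the largest rise and the 12 with the largest fall span several of the groups described here. Besides the stefins, Krt16 and Gjb6, the risen set held Lrrc15, Adamts4, Fbn2 and Il1b, which are described with the matrix and the immune genes. It also held Stra6, the cell surface receptor for retinol uptake, at 12.4, 18.2 and 39.0 CPM against 0.773, 1.27 and 0.134 CPM (4.99 ± 1.14, adjusted p = 0.0214). Cyp2g1, a cytochrome P450, and the secreted protein Prss35 completed it, with Cyp2g1 called in all 6 leave-one-out fits and Prss35 in 1. The fallen set held 7 genes of macrophages and their lectins (Fcna, Cd209f, Cd209g, Cd209b, Retnla, Folr2 and Cd163), Cxcl13, Per2 and Nnat. Its other members were Ifitm6, of the interferon-induced membrane protein family, at 0.355, 0.431 and 1.22 CPM against 8.22, 12.5 and 16.2 CPM (−4.18 ± 0.65, adjusted p = 0.00782), and the transcription factor Snai3 (−3.96 ± 1.05, adjusted p = 0.0336).

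**Figure D3:**
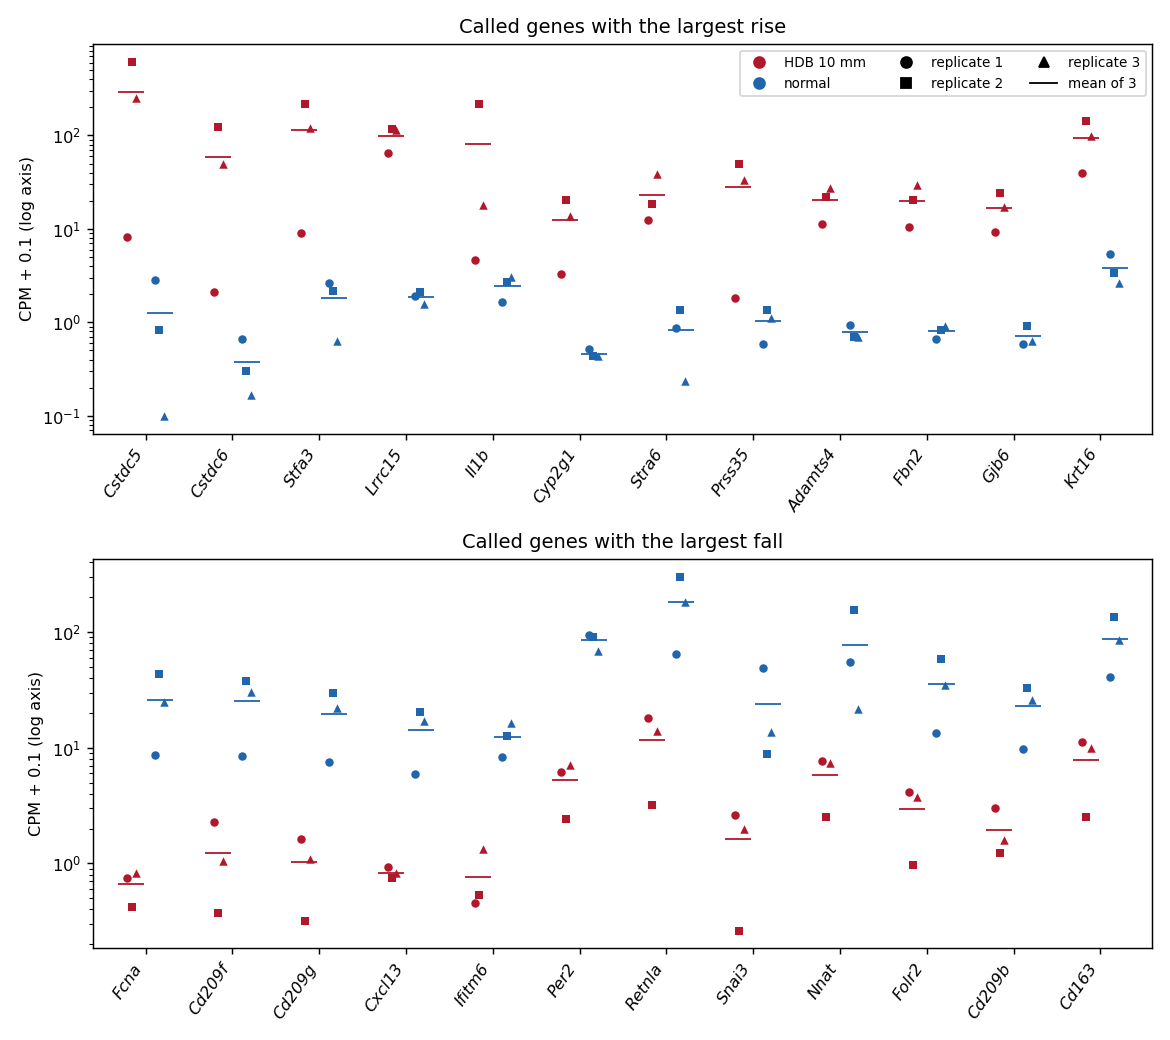
CPM + 0.1 on a log axis for the 12 called genes with the largest rise (top) and the 12 with the largest fall (bottom), chosen among genes with a mean of at least 10 CPM in the higher group and no overlap between groups. Red is HDB 10 mm and blue is normal, the marker shape gives the replicate, and the line is the mean of 3. HDB replicate 1 is the lowest HDB sample in each of the 12 risen genes, and normal replicate 1 is the lowest normal sample in 9 of the 12 fallen genes.

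Of 37 fibrillar and network collagen genes, edgeR called 1 higher (2.7%, against 6.1% of all genes) and DESeq2 5. None was called lower by either, and at an unadjusted p under 0.05 there were 6 higher and 0 lower. Without each library in turn, edgeR called 2, 0, 0, 0, 0 and 0 collagen genes higher. Col12a1 was the gene called by edgeR, at 64.5, 267.8 and 240.4 CPM against 29.4, 31.8 and 31.6 CPM (2.63 ± 0.62, adjusted p = 0.0230). The main dermal collagen gene Col1a1 measured 1936, 2294 and 2529 CPM against 1591, 5915 and 3071 CPM, and Col3a1 measured 3324, 3717 and 4409 CPM against 2344, 7255 and 3780 CPM. Normal skin alone spanned more than the gap between the groups for both of them. The sign of the collagen list's median, −0.11, was opposite in 6 of 13 other settings.

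Single matrix and protease genes were much higher in HDB skin. Lrrc15, a membrane protein of activated fibroblasts (Entrez 74488, chr16:30269302-30283254), measured 65.0, 118.3 and 114.2 CPM against 1.83, 2.01 and 1.48 CPM (5.80 ± 0.60, adjusted p = 0.000968). Tnc, the wound matrix glycoprotein tenascin C, measured 51.7, 117.9 and 96.7 CPM against 13.4, 9.31 and 8.72 CPM (3.09 ± 0.34, adjusted p = 0.00108). The metalloproteases Adam12, at 54.99, 59.5 and 54.2 CPM against 6.46, 10.4 and 5.37 CPM, and Adamts4, an aggrecanase, at 11.1, 22.1 and 27.3 CPM against 0.843, 0.603 and 0.604 CPM, rose by 2.92 ± 0.38 and 4.87 ± 0.65. These 4 genes were called in all 6 leave-one-out fits. Postn, which encodes periostin, measured 1023, 1137 and 923.9 CPM against 328.0, 466.0 and 407.6 CPM (1.36 ± 0.31, adjusted p = 0.0213). Fbn2, the fibrillin of developing tissue, was higher by 4.82 ± 0.96 and the macrophage elastase Mmp12 by 4.44 ± 1.23.

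The lists these genes belong to showed no net direction. Among 58 elastic fibre, proteoglycan and matricellular genes, 4 were called higher (6.9%) and 5 lower (8.62%), and among 45 matrix proteases and inhibitors, 5 higher (11.1%) and 4 lower (8.89%), against 6.1% and 6.23% of all genes, with medians of 0.10 and −0.09. Omission of each library in turn gave 4, 1, 2, 1, 2 and 1 higher and 5, 0, 1, 2, 2 and 0 lower in the first list, and 8, 2, 2, 2, 2 and 2 higher and 3, 1, 1, 2, 2 and 1 lower in the second. The protease inhibitor Timp3 measured 272.5, 196.8 and 255.1 CPM against 497.1, 517.7 and 492.0 CPM (−1.06 ± 0.18, adjusted p = 0.00889), and was called in all 6 fits, while its relative Timp1 rose by 2.28 ± 0.63. Lower genes also included the elastic fibre proteins Ltbp4 (−1.06 ± 0.21) and Efemp1 (−1.72 ± 0.34), the small proteoglycans Ogn (−1.63), Prelp (−1.33) and Podn (−1.81), and Pcolce and Pcolce2, enhancers of procollagen processing (−1.22 and −3.001).

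Some markers of resting dermal fibroblasts were lower. Of 29 genes in this list, 6 were called lower and 1 higher (Lrig1), with a median log2 fold change of −0.93. Pi16, a marker of adventitial and reticular fibroblasts, measured 59.3, 25.8 and 94.0 CPM against 244.8, 565.4 and 479.6 CPM (−2.85 ± 0.59, adjusted p = 0.0164), and the Wnt antagonist Sfrp4 measured 9.77, 0.807 and 16.7 CPM against 34.4, 99.2 and 102.2 CPM (−3.11 ± 0.82, adjusted p = 0.0329). The pan-fibroblast receptor Pdgfra, in contrast, measured 68.4, 44.2 and 66.0 CPM against 39.6, 79.2 and 52.3 CPM and was not called (adjusted p = 0.930). Of 25 myofibroblast, smooth muscle and pericyte genes edgeR called 1 lower, Kcnj8 (−1.66 ± 0.39), which is 4% against 6.23% of all genes. DESeq2 called 4 lower, and 8 were lower and 1 higher at an unadjusted p under 0.05. With edgeR, 7 were called lower without HDB replicate 1 but 0 without any other 1 library. The myofibroblast actin Acta2, with a log2 fold change of −0.07, overlapped between the groups. In the list of TGF-beta, activin and BMP signalling, 3 of 45 genes were called higher (6.67%, against 6.1% of all genes), including the activin antagonist Fst (1.12 ± 0.25), and 3 lower (6.67%, against 6.23%), including Bmp6 (−1.66 ± 0.43). Omitting each library in turn gave 4, 0, 0, 0, 0 and 0 higher and 6, 0, 0, 0, 2 and 0 lower. With each library left out in turn, 6, 0, 1, 3, 1 and 0 fibroblast genes were called lower.

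Many blood vessel genes were lower in HDB 10 mm skin. Of 42 vascular endothelial genes tested, 18 were called lower and 1 higher, with a median log2 fold change of −1.22, and in 36 of them every HDB sample lay below every normal sample, as in 23.4% of all genes. Pecam1, the adhesion protein that marks endothelium as CD31, measured 84.9, 49.3 and 87.0 CPM against 180.8, 189.3 and 197.6 CPM (−1.36 ± 0.39, adjusted p = 0.0412). The junction cadherin Cdh5 measured 44.0, 22.2 and 40.3 CPM against 105.2, 109.6 and 107.9 CPM (−1.60 ± 0.38, adjusted p = 0.0240). Gpihbp1, which holds lipoprotein lipase on capillaries, measured 11.01, 5.06 and 9.996 CPM against 52.1, 36.1 and 33.0 CPM (−2.22 ± 0.37, adjusted p = 0.00889). The 3 genes behaved alike, with HDB replicate 2 lowest and no HDB value near the normal range, and of them Gpihbp1 was called in all 6 leave-one-out fits.

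The endothelial fall covered several vessel functions. Vwf, the clotting factor carrier of larger vessels, fell by 2.22 ± 0.52 on the log2 scale, the water channel Aqp1 by 1.64 ± 0.36, the VEGF receptor Flt1 by 1.73 ± 0.40, the angiopoietin receptor Tek by 1.58 ± 0.42 and the phosphatase Ptprb by 2.08 ± 0.45. Klf2, the flow-induced transcription factor listed among immediate-early genes, measured 22.02, 16.7 and 27.3 CPM against 93.2, 68.7 and 72.0 CPM (−1.83 ± 0.40, adjusted p = 0.0186). The exception was Sox7, at 29.1, 42.7 and 39.3 CPM against 13.1, 16.6 and 16.3 CPM (1.27 ± 0.23, adjusted p = 0.0120). Of 11 lymphatic genes 1 was called lower (9.09%, against 6.23% of all genes), Lyve1, which resident macrophages also make (−3.16 ± 0.57). The lymphatic factor Prox1 measured 4.74, 3.39 and 6.33 CPM against 5.48, 5.96 and 8.85 CPM. Without each library in turn, 17, 1, 2, 2, 3 and 1 vascular genes and 1, 0, 1, 1, 1 and 0 lymphatic genes were called lower.

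Several genes of resident macrophages were reduced. Of 36 macrophage and monocyte genes tested, 9 were called lower and 1 higher, with a median log2 fold change of −0.33. Cd163, the haemoglobin scavenger receptor of resident macrophages (Entrez 93671, chr6:124304636-124330529), measured 11.01, 2.42 and 9.94 CPM against 40.8, 133.7 and 84.98 CPM (−3.47 ± 0.59, adjusted p = 0.00957). Retnla, a product of alternatively activated macrophages, measured 17.99, 3.07 and 13.9 CPM against 64, 301.4 and 183.3 CPM (−3.97 ± 0.82, adjusted p = 0.0165). The folate receptor Folr2, at 4.03, 0.861 and 3.67 CPM against 13.4, 57.9 and 34.5 CPM, fell by 3.63 ± 0.66. In each of these normal replicate 1 was the lowest normal library and still lay above every HDB library. The lectins Cd209f, Cd209g and Cd209b fell by 4.48, 4.42 and 3.62, but as close relatives in 1 gene cluster their separate values are uncertain.

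Not all macrophage genes moved that way. Gpnmb, a glycoprotein of lipid-laden and repair macrophages, measured 142.9, 336.4 and 169.8 CPM against 45.3, 61.5 and 46.0 CPM (2.09 ± 0.53, adjusted p = 0.0306), and Mmp12, also made by macrophages, rose as given above. The general marker Cd68 measured 17.1, 33.4 and 24.1 CPM against 18.5, 27.0 and 16.4 CPM and was not called (adjusted p = 0.804). Csf1r, another macrophage marker, was lower in every HDB sample than in every normal sample. It measured 34.63, 40.03 and 52.15 CPM against 72.57, 154.2 and 98.87 CPM but was not called (−1.36 ± 0.497, adjusted p = 0.0867). Complement genes fell in part, with 7 of 27 called lower and 0 higher (median −1.25). Fcna, the lectin ficolin A made by macrophages, fell furthest of the genes named here, at 0.651, 0.323 and 0.722 CPM against 8.57, 43.4 and 24.6 CPM (−5.48 ± 0.60, adjusted p = 0.00108), and was called in all 6 fits. C1qa and C1qb, which start the classical pathway, fell by 1.88 ± 0.51 and 1.99 ± 0.53. Serping1, the inhibitor of the first complement component, measured 117.3, 65.2 and 116.8 CPM against 204.0, 428.4 and 364.1 CPM (−1.74 ± 0.45), and the shield protein Cd55 and the terminal component C7 were lower by −1.25 and −2.48. In the 6 leave-one-out fits, 6, 2, 3, 9, 5 and 1 macrophage genes and 7, 1, 1, 5, 1 and 1 complement genes were called lower.

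Chemokines moved in both directions. Of 33 tested, 7 were called higher and 5 lower. Cxcl9 and Cxcl10, interferon-induced attractants of T cells, measured 25.4, 55.04 and 109.9 CPM against 4.15, 6.09 and 4.63 CPM (3.68 ± 0.73, adjusted p = 0.0147) and 4.44, 13.2 and 23.1 CPM against 0.632, 0.937 and 0.671 CPM (4.17 ± 0.69, adjusted p = 0.00889). HDB replicate 3 was highest and HDB replicate 1 lowest for both, and no HDB value reached down to the normal range. Ccl2, the monocyte attractant, rose by 2.82 ± 0.56 and Cxcl16 by 1.88 ± 0.42. Cxcl13, the B cell attractant, went from 5.83, 20.2 and 16.8 CPM in normal skin down to 0.829, 0.646 and 0.722 CPM (−4.27 ± 0.44, adjusted p = 0.000968), and Ccl24, Ccl6, Ccl8 and Pf4 were also called lower (log2 fold changes of −2.69, −2.01, −1.72 and −2.43). Ccl1, a T cell product, was called higher too, at 2.07, 4.25 and 8.22 CPM against 0.141, 0 and 0.201 CPM, where the normal values are at most 3 reads. With each library left out in turn, 11, 4, 2, 2, 4 and 1 chemokines were called higher and 5, 1, 1, 4, 1 and 1 lower.

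Of 35 T cell and natural killer cell genes tested, 4 were called higher and 0 lower, with a median log2 fold change of 1.15. The granzyme Gzmc measured 42.1, 104.2 and 174.2 CPM against 5.06, 12.5 and 7.45 CPM (3.68 ± 0.86, adjusted p = 0.0230), and the lymphocyte chemokine Xcl1 measured 3.79, 9.20 and 16.5 CPM against 0.773, 1.74 and 0.604 CPM (3.23 ± 0.85, adjusted p = 0.0331). Both were ordered as Cxcl9 was, with HDB replicate 1 lowest and replicate 3 highest. Ifng, the interferon of these cells, was also called, at 0.414, 0.431 and 2.39 CPM against 0, 0.134 and 0.0671 CPM, which is at most 2 reads in a normal library. Without each library in turn, 5, 0, 0, 0, 0 and 0 genes of the list were called higher. The T cell receptor subunit Cd3e measured 3.20, 3.07 and 4.39 CPM against 6.04, 3.75 and 3.56 CPM and was not called (adjusted p = 0.756). Of 59 interferon response genes 4 were called higher (6.78%, against 6.1% of all genes) and 2 lower (3.39%, against 6.23%), the higher count was 7, 2, 1, 1, 2 and 0 without each library in turn, and the median of the list was 0.60 with all samples and 0.08 without HDB replicate 3. Tap1, the peptide transporter of antigen presentation, measured 117.2, 164.1 and 204.3 CPM against 78.0, 78.9 and 67.9 CPM (1.11 ± 0.33). Of 6 B cell and plasma cell genes, 24 dendritic and Langerhans cell genes and 13 mast cell genes tested, 1 was called higher in each list (Blk, Epcam and Fcer1a), and Irf4 and the mast cell protease Cpa3 were called lower (−2.02 ± 0.40 and −1.98 ± 0.58). These 3 higher calls are 16.7%, 4.17% and 7.69% of their lists, against 6.1% of all genes, and each list had 0 called higher without any 1 library other than HDB replicate 1. The lower calls are 4.17% of the dendritic and 7.69% of the mast cell list, against 6.23% of all genes. Without each library in turn, 1, 0, 1, 1, 1 and 0 dendritic and 0, 0, 0, 0, 0 and 0 mast cell genes were called lower. DESeq2 called 1, 5 and 1 genes of these lists higher and 1, 1 and 4 lower.

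Neutrophil genes were raised in 1 library above all. Of 16 tested, 1 was called higher (6.25%, against 6.1% of all genes) and 0 lower. DESeq2 called 7 higher and 1 lower, and at an unadjusted p under 0.05 there were 11 higher and 1 lower. The gene called by edgeR was Il1b, the inflammatory cytokine interleukin 1 beta, at 4.56, 218.6 and 17.9 CPM against 1.55, 2.61 and 2.95 CPM (5.08 ± 1.31, adjusted p = 0.0313). The calgranulin S100a9 measured 0.355, 123.2 and 5.17 CPM against 1.90, 1.14 and 2.08 CPM, and S100a8 measured 1.01, 72.5 and 3.00 CPM against 3.65, 1.34 and 2.68 CPM. HDB replicate 2 carried nearly all of the signal of these 3 genes. The list's median log2 fold change was 3.78 with all samples and 0.76 without that replicate, when 0 members were called. Without each library in turn, 6, 0, 0, 0, 0 and 0 neutrophil genes were called higher. Of 27 cytokine and interleukin genes, 5 were called higher, Il1b, Ifng, Il12b, Il23a and Il7, and 1 lower, the epithelial cytokine Tslp, at 1.42, 1.40 and 0.889 CPM against 2.18, 3.21 and 4.23 CPM (−1.37 ± 0.34, adjusted p = 0.0270). The number of cytokine genes called higher was 10, 0, 0, 0, 0 and 0 without each library in turn.

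**Figure D4:**
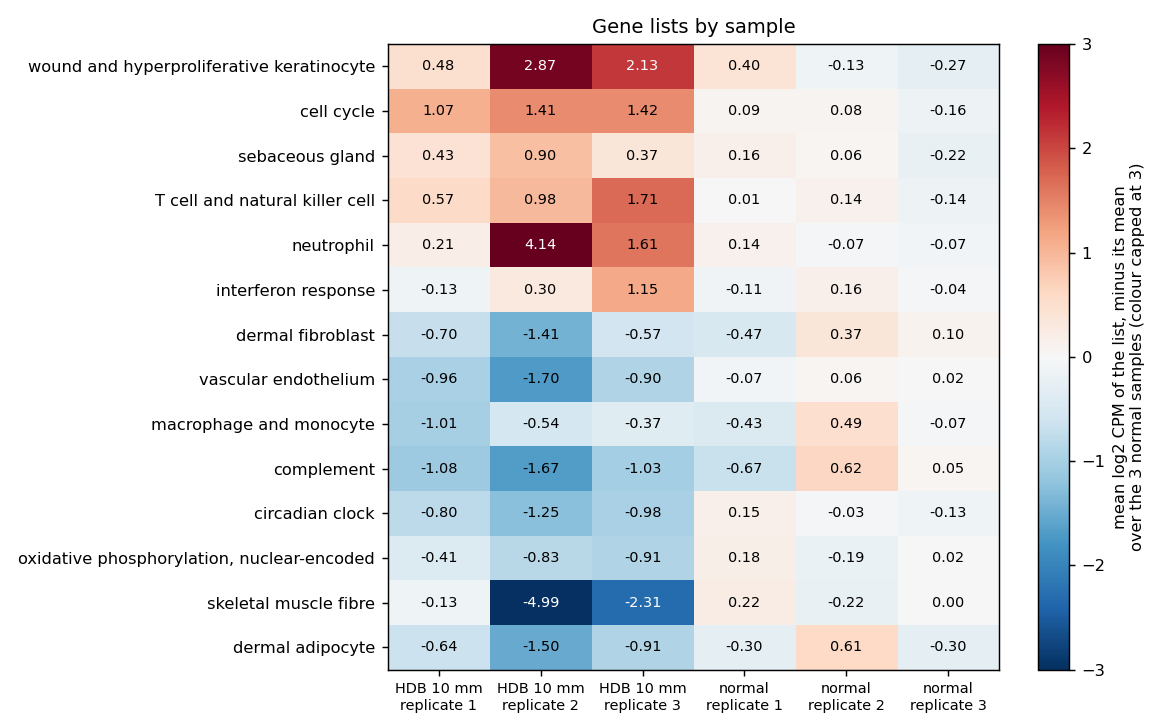
Each cell gives, for 1 gene list and 1 sample, the mean log2 CPM of the list's genes minus its mean over the 3 normal samples, with colour capped at 3 in either direction. Vascular endothelium lies between −0.90 and −1.70 and circadian clock between −0.80 and −1.25 in the HDB samples, whereas skeletal muscle fibre (−0.13, −4.99 and −2.31) and neutrophil (0.21, 4.14 and 1.61) differ widely between the 3 HDB samples.

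Many genes of mitochondrial respiration were lower by a small amount. Of 58 nuclear-encoded oxidative phosphorylation genes, 26 were called lower and 0 higher, the median log2 fold change was −0.66, and in 53 all HDB samples lay below all normal samples, as in 23.4% of all genes. The cytochrome oxidase subunit Cox4i1 measured 435.8, 403.2 and 353.5 CPM against 660.8, 568.8 and 609.9 CPM (−0.63 ± 0.13, adjusted p = 0.0165). Sdhb, of succinate dehydrogenase, measured 149.6, 91.9 and 89.6 CPM against 258.8, 191.2 and 224.8 CPM (−1.03 ± 0.28, adjusted p = 0.0376). Atp5c1, of the ATP synthase, and Cox5a, of cytochrome oxidase, fell by 0.75 ± 0.20 and 0.99 ± 0.28. None of 61 skeletal muscle fibre genes tested was called with edgeR, and the median was −1.80. At an unadjusted p under 0.05, 2 were higher and 6 lower, and DESeq2 called 1 higher and 4 lower. Leaving out HDB replicate 1 gave 9 muscle genes called lower, leaving out normal replicate 2 gave 1, and leaving out any other library gave 0. Acta1, the actin of muscle fibres, measured 8737, 205.3 and 2007 CPM against 16290, 12980 and 14650 CPM (adjusted p = 0.277). Relative to the normal mean, the mean log2 level of the muscle list was −0.13, −4.99 and −2.31 in HDB replicates 1, 2 and 3, and that of the respiration list was −0.41, −0.83 and −0.91. The part of muscle in the respiration result was not tested. In the 6 leave-one-out fits, 33, 0, 0, 1, 17 and 0 respiration genes were called lower.

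The hypoxia and glycolysis list split between family members. Of 30 genes, 7 were called higher and 3 lower. Ldha, the lactate dehydrogenase subunit abundant in muscle, measured 1211, 524.5 and 720.0 CPM against 2079, 1814 and 1739 CPM (−1.20 ± 0.34, adjusted p = 0.0416), and the hexokinase Hk2 fell by 1.71 ± 0.39. The glucose carrier Slc2a1, abundant in epidermis, measured 76.0, 118.6 and 114.5 CPM against 46.2, 44.8 and 42.8 CPM (1.21 ± 0.29, adjusted p = 0.0241), and the oxygen sensor Egln3 rose by 1.41 ± 0.32. Gpi1, a glycolytic isomerase, fell by 0.73 ± 0.17. With each library left out in turn, 7, 0, 0, 0, 2 and 0 genes were called higher and 8, 0, 0, 0, 2 and 0 lower. The muscle levels given above moved with the fallen members, and their part was not tested.

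Of 32 dermal adipocyte genes 2 were called lower with edgeR (6.25%, against 6.23% of all genes) and 11 with DESeq2, the median log2 fold change was −1.22, 15 were lower at an unadjusted p under 0.05, and 18 had every HDB sample below every normal sample, as in 23.4% of all genes. The edgeR count was 6, 0, 0, 1, 1 and 1 without each library in turn. The 2 called were the fat lipase Pnpla2 (−1.48 ± 0.42) and Nnat (−3.75 ± 0.75), while the fat hormone gene Adipoq measured 197.1, 90.2 and 180.2 CPM against 219.5, 703.3 and 330.2 CPM. None of 14 myogenic progenitor genes, 15 melanocyte genes and 4 erythrocyte genes was called in the edgeR fit of all samples (medians −0.34, 1.73 and −2.56), with 0, 1 and 3 at an unadjusted p under 0.05 and 0, 0 and 3 called by DESeq2. Leaving out HDB replicate 1 gave 1, 0 and 3 called lower. With only the 2 groups fitted, 4 melanocyte genes were called higher and 1 lower, and 3 erythrocyte genes lower. The pigment enzyme Dct measured 84.8, 62.4 and 134.3 CPM against 24.6, 41.2 and 19.3 CPM (adjusted p = 0.197), the muscle growth inhibitor Mstn 147.6, 0.807 and 20.99 CPM against 247.9, 292.3 and 295.1 CPM (adjusted p = 0.318), and the haemoglobin gene Hba-a1 measured 131.2, 26.8 and 36.0 CPM against 183.4, 427.1 and 614.7 CPM. Of 25 Schwann cell and myelin genes 2 were called higher (8%, against 6.1% of all genes), but 18 had a negative fold change and the median was −0.72. DESeq2 called 2 higher and 4 lower, and at an unadjusted p under 0.05 there were also 2 and 4. One was Egr2, a transcription factor also induced by growth signals, at 88.1, 162.8 and 160.7 CPM against 51.7, 44.6 and 38.6 CPM (1.61 ± 0.27, adjusted p = 0.00905). Of 26 immediate-early genes, 2 were called higher (7.69%, against 6.1%) and 3 lower (11.5%, against 6.23%), or 4, 1, 1, 2, 1 and 0 higher and 2, 0, 0, 0, 1 and 0 lower without each library in turn, the former including Fosl2 (0.74 ± 0.16) and the latter Klf2, Klf4 and Jund. Among 9 genes that the study itself examined in skin, 4 were higher (Mki67, Cxcl9, Cxcl10 and Il12b) and 1 lower (Pecam1). Cd68, Cd3e, Vcam1 and Ccl5 did not pass the test, and Vcam1, an adhesion protein, measured 12.5, 13.1 and 20.5 CPM against 12.7, 12.7 and 11 CPM (adjusted p = 0.612). Vcam1, Ccl5, Il12b, Cxcl10 and Cxcl9 were taken up by the study as transcripts of the healed skin, so these 5 are not independent evidence of a direction, while the proteins of the others were stained in sections. The study's text compares those proteins among treated and untreated wounds, so the fall of Pecam1 against normal skin is a different comparison, of RNA.

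**Figure D5:**
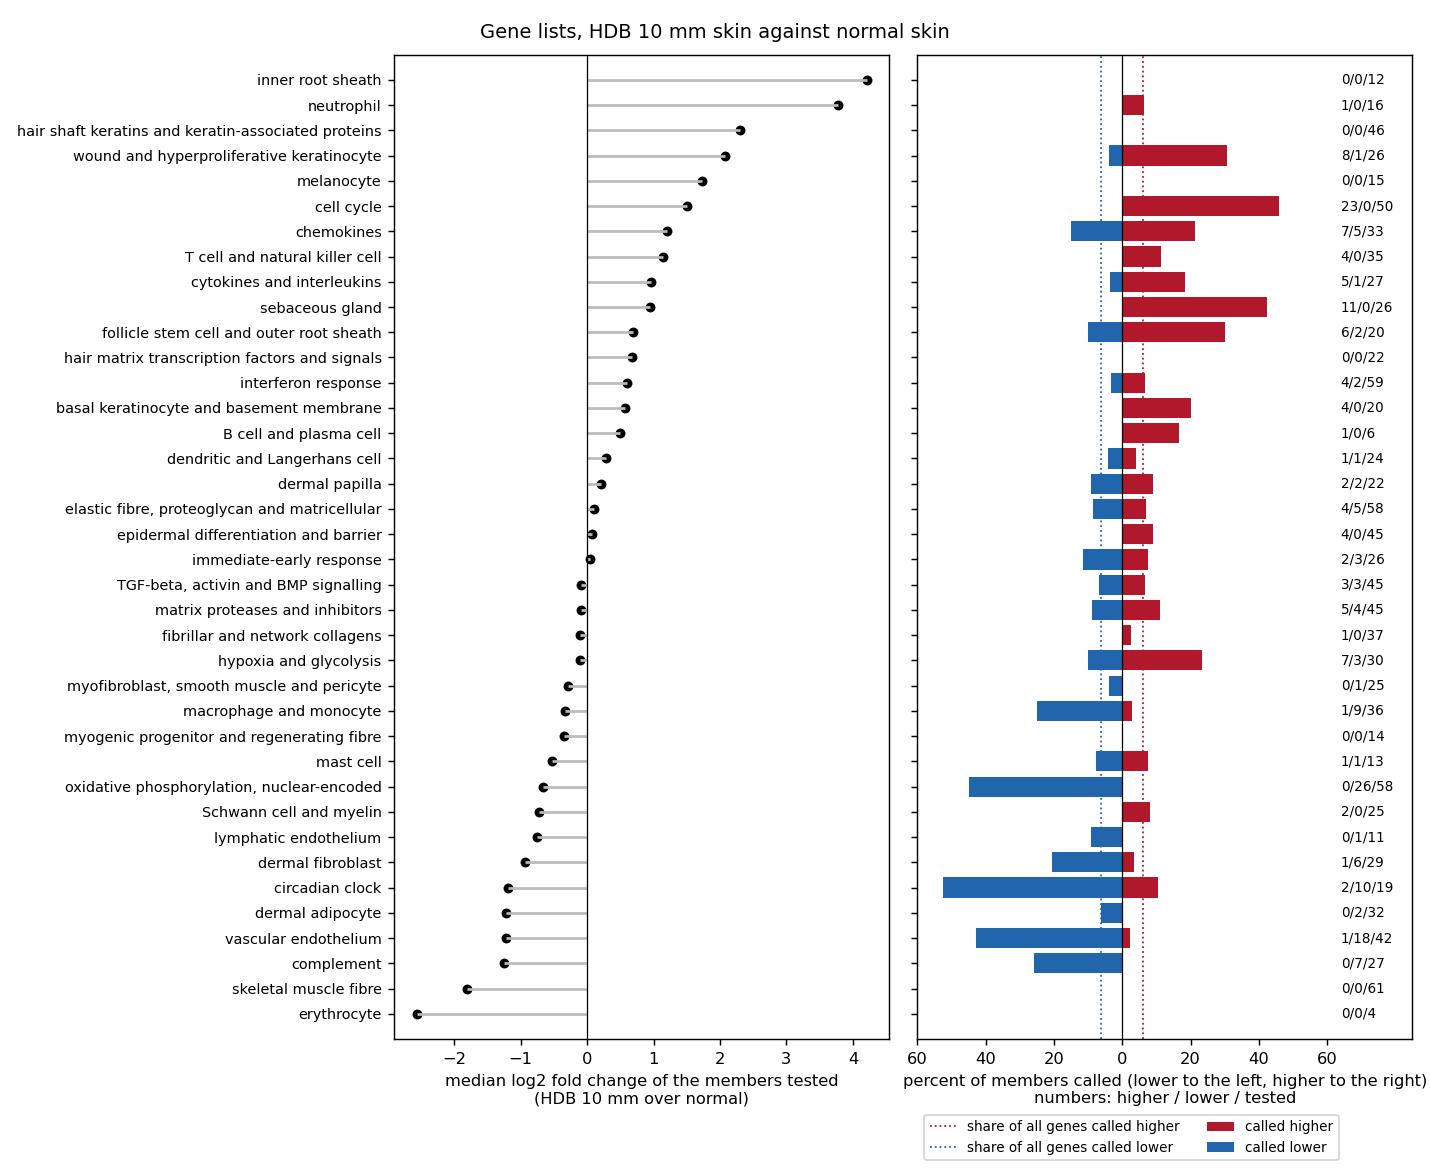
Left, the median log2 fold change (HDB 10 mm over normal) of the tested members of each of 38 gene lists. Right, the percent of members called lower (blue, to the left) and higher (red, to the right), with dotted lines at the shares of all genes, 6.23% and 6.1%, and the numbers higher, lower and tested. Cell cycle and sebaceous gland reach the highest shares of risen members, 46.0% and 42.3%, and circadian clock, oxidative phosphorylation and vascular endothelium the highest shares of fallen ones, 52.6%, 44.8% and 42.9%.

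Several of the 72 genes called in every leave-one-out fit belong to no list above, and they were chosen here after their values were seen. Cd44, the hyaluronan receptor, measured 199.1, 249.0 and 308.3 CPM against 114.0, 89.9 and 81.6 CPM (1.41 ± 0.18, adjusted p = 0.00271), and Cemip, which takes part in hyaluronan breakdown, measured 4.20, 10.9 and 7.66 CPM against 0.562, 0.469 and 0.872 CPM (3.57 ± 0.49, adjusted p = 0.00371). The epithelial transcription factor Ehf measured 23.8, 39.2 and 70.4 CPM against 4.64, 6.90 and 4.03 CPM (3.10 ± 0.38, adjusted p = 0.00244). The carbonic anhydrase Car12 measured 96.5, 187.4 and 126.0 CPM against 14.3, 14.5 and 12.7 CPM (3.31 ± 0.48, adjusted p = 0.00588). Each of these genes had all 3 HDB samples well above normal skin. Among those that fell, F13a1, a clotting factor subunit made by resident macrophages, measured 23.9, 13.0 and 24.7 CPM against 63.8, 212.9 and 135.2 CPM (−2.74 ± 0.45, adjusted p = 0.00889), and Phlda3, a target of p53, measured 104.1, 77.9 and 78.6 CPM against 251.0, 204.4 and 192.6 CPM (−1.31 ± 0.17, adjusted p = 0.00270).

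To see whether these differences were particular to MSC beads or to the wound size, HDB 10 mm skin was set against acellular 10 mm skin and HDB 15 mm skin in the same fit. With edgeR 0 of 15369 genes were called in either comparison, with 543 and 1896 at an unadjusted p under 0.05, while DESeq2 called 17 and 563. Lrrc15 averaged 57.6 CPM in acellular 10 mm skin and 113.4 CPM in HDB 15 mm skin against 99.2 CPM in HDB 10 mm skin. Per1 averaged 80.3 CPM and 34.7 CPM in these groups against 30.3 CPM, and its difference from acellular 10 mm skin did not pass the test (−1.41, adjusted p = 0.0836). Stfa3 averaged 9.93 CPM and 7.58 CPM against 115.3 CPM, a mean set by HDB replicates 2 and 3, with differences of 3.54 and 3.92 that were not called (adjusted p of 0.9999 and 0.215). Pecam1 averaged 47.1 CPM and 94.3 CPM against 73.8 CPM. With edgeR, no difference from normal skin was shown to be particular to HDB 10 mm skin.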

How the data were processed

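RNA was sequenced from 15 mouse skin samples in 5 groups of 3, and the comparison of HDB 10 mm with normal skin uses 6 of them. The authors deposited a table of estimated counts per gene for 18929 genes, made per the submitters' processing notes with HISAT2 2.0.4, Bowtie2 2.2.5 and RSEM 1.2.12 on GRCm38.p6. RSEM shares reads between near-identical genes by estimation, and whether counting used the strand is not given in the sources used here, so copies and antisense partners are uncertain. The study's methods name DESeq2 for differential expression, which was run as an alternative.

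The estimated counts were rounded to whole numbers, filtered with filterByExpr (15369 genes kept), scaled by TMM and tested with edgeR 4.0.16 (R 4.3.3, limma 3.58.1) by its quasi-likelihood test in 1 fit of all 5 groups. P-values were adjusted by Benjamini and Hochberg's method over all genes tested, with a threshold of 0.05. Standard errors were obtained by dividing each log2 fold change by the root of its F statistic. DESeq2 1.42.0, RLE factors, other filters, the 2 groups alone, a replicate block, a length correction, a minimum fold change and leaving out each library were the alternatives.

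Genes were named by rule, as the 12 called genes with the largest rise and the 12 with the largest fall (groups apart, at least 10 CPM in the higher group), up to 4 called members of each of 39 gene lists, the best measured member of a list without calls, and 9 genes of the study. Others were added after their values were seen. The members and lists were chosen with earlier results of these data known. Lists share some genes. In simulated data for HDB 10 mm against normal skin with 200 changed genes, 84.5% were recovered at a log2 change of 2 (15273 genes, 10 false calls) and 40% at 1 (15258 genes, 2 false calls). The 6 libraries held similar totals of 15840551 to 18074237 reads, and values well under 1 CPM rest on few reads. Some genes are not reported here by name.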

Additional observations from a re-analysis of the deposited data

How the results depend on the processing

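Each of the 1895 calls kept its sign in all 6 fits that left out 1 library, but their number ranged from 78 to 2725, with 39 to 1218 higher and 39 to 1507 lower. The lowest count came without normal replicate 3 and the highest without HDB replicate 1. DESeq2 called 3804 (1786 higher and 2018 lower), and the 2 groups fitted alone gave 2988, of which 1577 were higher. A minimum absolute log2 fold change of 1 left 892 (433 higher and 459 lower). Deviations of same-numbered HDB and normal samples correlated at 0.0307, 0.0298 and −0.0409, and those of differently numbered ones at −0.164 to 0.203. With 3 samples a group these correlations cannot show whether the replicate numbers mark pairs. No HDB 10 mm or normal sample correlated best with its own number in the other group. With the replicate block 1187 genes were called, 604 higher and 583 lower. RLE factors, no filter, a mean count of at least 50 and the length correction gave 1887, 1473, 1966 and 1808 calls. Against acellular 10 mm skin DESeq2 called 17 genes (4 higher and 13 lower), and against HDB 15 mm skin 563 (361 higher and 202 lower), where edgeR called 0. Among uncalled genes the sign of the log2 fold change turned for Col3a1, which ranged from −0.52 without normal replicate 1 to 0.32 without normal replicate 2, for Krt1, from −0.30 without HDB replicate 2 to 0.45 without HDB replicate 1, and for Pdgfra, from −0.14 without normal replicate 1 to 0.37 without normal replicate 2. The medians of the collagen, barrier, immediate-early, elastic fibre, dendritic cell, hypoxia and myogenic lists also turned sign in 1 or more settings. The causes were not tested.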
